A study of Mus musculus with 8 samples.

Results

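Extracellular proteolysis by matrix metalloproteinases and the plasminogen activation system was followed through 10 genes: the metalloproteinases Mmp2, Mmp3, Mmp10, Mmp13 and Mmp14, the tissue inhibitors of metalloproteinases Timp1, Timp2 and Timp3, the urokinase receptor Plaur and the tissue plasminogen activator Plat. Every probe set that the platform annotation assigns to one of these symbols was taken, which gave 20 of 22626 probe sets, for 10 of 12393 genes named by a probe set of their own. The cells were TTE3, a line of mouse testicular Sertoli cells from transgenic mice with a large T-antigen of simian virus 40 that is temperature-sensitive. They were kept at the nonpermissive temperature of 39 °C for 0, 6, 12 or 24 h, with 2 samples and 2 arrays per time and 8 arrays in all, and RNA was measured on Affymetrix mouse 430A arrays. All groups carried the transgene, and all were samples of 1 line, and temperature, time in culture and T-antigen state change together in every comparison with 0 h. Whether the 2 samples of a time were separate cultures is not given in the labels, and the p-values cover the spread between these samples alone, which may be technical.

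Matrix metalloproteinases are zinc endopeptidases that are made as inactive proenzymes and cut collagens, proteoglycans and other matrix proteins. TIMPs bind their active sites and inhibit them, and plasmin, made from plasminogen by urokinase or tissue plasminogen activator, cuts matrix itself and removes the propeptide of several of them. In the testis, Sertoli cells secrete plasminogen activators, metalloproteinases and TIMPs, which have been studied for their part in remodelling the seminiferous tubule and its cell junctions.

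The windows before the start sites of 5 members are shown because these genes moved most, or, for Mmp3, because it lies between Mmp13 and Mmp10 on chromosome 9. RefSeq windows of assembly GRCm38.p6 were given for 8 of the 10 members, all except Mmp2 and Plat, and the 250 bases before the annotated start were searched. The capitals mark a match to TGANTCA, the site of the Fos and Jun factor AP-1, or to TATAAA, the TATA box. The windows, all on the plus strand, are chr9:7272264-7272513 for Mmp13, chr9:7502092-7502341 for Mmp10, chr9:7445572-7445821 for Mmp3, chr7:24462233-24462482 for Plaur and chrX:20869916-20870165 for Timp1.
Mmp13: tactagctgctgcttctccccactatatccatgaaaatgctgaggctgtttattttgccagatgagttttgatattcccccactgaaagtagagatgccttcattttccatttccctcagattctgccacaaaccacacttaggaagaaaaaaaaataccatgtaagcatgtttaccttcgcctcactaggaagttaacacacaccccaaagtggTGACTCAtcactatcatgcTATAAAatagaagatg
Mmp10: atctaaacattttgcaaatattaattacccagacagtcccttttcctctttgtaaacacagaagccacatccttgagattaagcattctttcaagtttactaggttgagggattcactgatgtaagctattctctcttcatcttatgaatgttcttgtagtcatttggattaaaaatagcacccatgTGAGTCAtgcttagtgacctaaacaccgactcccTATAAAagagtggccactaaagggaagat
Mmp3: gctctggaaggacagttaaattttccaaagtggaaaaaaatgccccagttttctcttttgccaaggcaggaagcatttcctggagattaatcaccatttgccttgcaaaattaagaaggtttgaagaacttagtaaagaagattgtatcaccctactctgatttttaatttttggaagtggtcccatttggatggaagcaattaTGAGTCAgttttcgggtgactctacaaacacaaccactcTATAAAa
Plaur: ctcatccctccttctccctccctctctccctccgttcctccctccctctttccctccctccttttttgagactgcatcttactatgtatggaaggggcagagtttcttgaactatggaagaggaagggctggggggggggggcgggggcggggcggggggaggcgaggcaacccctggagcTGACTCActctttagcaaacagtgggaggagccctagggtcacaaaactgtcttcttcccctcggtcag
Timp1: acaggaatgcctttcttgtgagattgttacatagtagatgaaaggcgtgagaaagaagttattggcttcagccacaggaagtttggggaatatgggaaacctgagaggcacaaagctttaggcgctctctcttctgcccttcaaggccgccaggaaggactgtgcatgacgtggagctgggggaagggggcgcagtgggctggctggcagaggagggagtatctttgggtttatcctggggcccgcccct

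Mmp13, Mmp10 and Mmp3 each held 1 AP-1 match and, nearer the start, 1 TATA box match. The AP-1 match ended 29 bases before the start in Mmp13, 57 in Mmp10 and 40 in Mmp3, and the TATA box match ended 11, 24 and 2 bases before it. Plaur, which fell, held an AP-1 match that ended 63 bases before the start and no TATA box match. The AP-1 letters thus stood before Mmp13 and Mmp10, which rose, before Mmp3, which was too dim to be tested, and before Plaur. Whether the letters go with the direction of change was not tested. Timp1, which also fell, held neither.

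Both strands were searched in the windows of all 32851 RefSeq starts, of which 6.75% held the AP-1 letters and 12.4% the TATA box letters. Among the 8 members with a window, 4 held the AP-1 letters and 3 the TATA box letters. The letters AGGAAG, the core of an ETS factor site, were found in 6 members against 29.5% of all windows, and the letters GGGCGG, a GC box, in 5 members (Mmp14, Timp1, Timp2, Timp3 and Plaur) against 32.7%. The heat shock element core GAANNTTC was found in 1 member, Mmp10, against 6.69% of all windows. No match of 1 motif overlapped a match of another in these members, and 2 of the 3 GC box matches of Plaur shared a base. These matches describe letters in a window and are not measured binding sites.

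Signals are intensities as deposited, in arbitrary units that cannot be set side by side between probe sets, and fewer cells with a transcript cannot be told apart from less RNA per cell. Changes are given as log2 differences of the signal plus an offset of 21.9, ± the standard error of the fit, and a change was called where the Benjamini-Hochberg adjusted p of limma over all 13576 tested probe sets lay below 0.05. Of the 20 probe sets, 18 passed the filter on dim signals and were tested, from 9 genes. The probe set of Mmp3 and 1 of the 6 of Timp2 (1437081_at) did not pass. Over the 4 times, 10 of the 18 changed by the moderated F-test, against 40.1% of all tested probe sets. They came from 7 genes: Mmp13, Mmp10, Mmp2, Timp1, Timp3, Plaur and Plat. For Mmp14 and Timp2 no tested probe set passed.

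At 6 h against 0 h 4 of 18 tested probe sets were called, Mmp13 and Mmp10 higher and 2 probe sets of Timp3 lower, against 18.0% of all tested probe sets (8.65% higher and 9.33% lower). At 12 h against 0 h 8 were called, 2 higher (Mmp13 and Mmp10) and 6 lower (Timp1, Plaur and all 4 probe sets of Timp3), against 24.0% (12.1% higher and 11.9% lower). These 8 came from 5 of the 9 tested genes, and the 4 probe sets of Timp3 are not independent readings. At 24 h against 0 h 7 were called, against 32.9%: Mmp13, Mmp10, 1 probe set of Mmp2 and Plat were higher, against a background of 17.1%, and Timp1, 1 probe set of Timp3 and Plaur were lower, against 15.8%. The shares of members called at 24 h were thus near the background. The median change of the 18 was -0.09 at 6 h, -0.15 at 12 h and 0.01 at 24 h, and that of all tested probe sets was 0.00, 0.01 and 0.02. These 3 comparisons share the 0 h arrays.

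**Figure D1:**
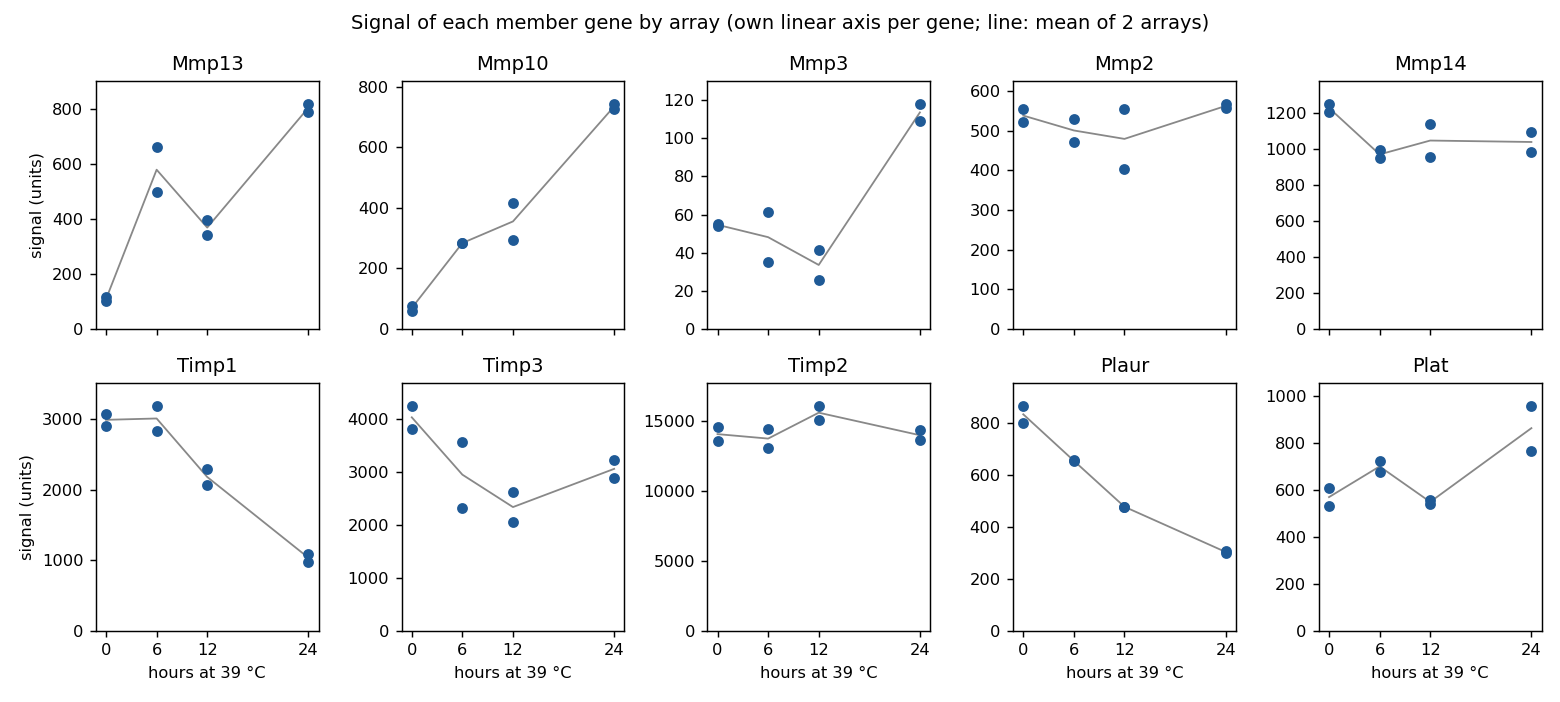
Signal (units, linear axis from 0, own scale per gene) of the brightest probe set of each of the 10 genes against hours at 39 °C. Points are arrays and lines join the means of 2 arrays. Mmp13 and Mmp10 are lowest at 0 h and highest at 24 h, Timp1 and Plaur are lowest at 24 h, Timp3 is lowest at 12 h, and Mmp3 lies above its other values only at 24 h, where its signals are 109 and 118.3.

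Mmp13, collagenase 3, which cuts fibrillar collagens, had signals of 113.8 and 101.5 at 0 h, 496.8 and 660.7 at 6 h, 395.9 and 340.4 at 12 h, and 789.7 and 819.5 at 24 h. Every later array lay above both 0 h arrays, and the 12 h arrays lay below both 6 h and both 24 h arrays. The means were 108 ± 8.70 at 0 h, 579 ± 116 after 6 h, 368 ± 39.2 after 12 h and 805 ± 21.1 after 24 h (SD, n = 2 each). The log2 change from 0 h was 2.20 ± 0.15 at 6 h (limma adjusted p = 8.36e-06), 1.59 ± 0.15 at 12 h (adjusted p = 6.23e-05) and 2.67 ± 0.15 at 24 h (adjusted p = 1.04e-06). As a fold on the offset scale this was 4.60, 3.01 and 6.39, and as a ratio of mean signals 5.38, 3.42 and 7.47. By the size of the rise Mmp13 ranked 8 of 13576 at 6 h, 55 at 12 h and 16 at 24 h.

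Between later times Mmp13 was lower at 12 h than at 6 h, with a change of -0.61 ± 0.15 (adjusted p = 0.0350), and higher at 24 h than at 12 h, by 1.09 ± 0.15 (adjusted p = 0.00335). The dip at 12 h passed the threshold only narrowly: it was lost without any 1 array except 6 h replicate 1 (adjusted p between 0.0574 and 0.172), with no filter (0.0751), without a variance trend (0.0633) and where 6 h and 12 h alone were fitted (0.109), and the later rise was lost without 24 h replicate 2 (adjusted p = 0.0534). From 6 h to 24 h the change was 0.47 ± 0.15 (adjusted p = 0.0442), a call that 11 of 18 alternatives ended. Without 6 h replicate 1 it was 0.28 (adjusted p = 0.255), and without 0 h replicate 1, 0 h replicate 2, 24 h replicate 1 or 24 h replicate 2 its adjusted p was 0.0617, 0.0611, 0.148 or 0.192. The higher level at each later time than at 0 h was called under all 18 alternatives.

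Mmp10, stromelysin 2, cuts a broad range of matrix proteins and activates procollagenases. Its signals were 60.1 and 76.7 at 0 h, 281.7 and 284.4 at 6 h, 293.1 and 415.8 at 12 h, and 724.9 and 743.8 at 24 h. Each time lay above all earlier ones with no overlap of arrays. The log2 change from 0 h was 1.76 ± 0.17 at 6 h (adjusted p = 9.96e-05), 2.05 ± 0.17 at 12 h (adjusted p = 2.34e-05) and 3.07 ± 0.17 at 24 h (adjusted p = 9.17e-07). Since the 0 h signal was dim, the offset matters here: the fold at 24 h was 8.41 on the offset scale and 10.7 as a ratio of mean signals, and the 0 h mean of 68.4 lay below the filter expressed as a signal (74.0). The log2 change at 24 h was 2.47 with the 40th percentile as the offset and 3.43 with no offset. The rank by size of the rise was 24 at 6 h, 17 at 12 h and 5 at 24 h.

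The means of Mmp10 showed no dip at 12 h. Its change from 6 h to 12 h was 0.28 ± 0.17 and was not called (adjusted p = 0.345). From 12 h to 24 h it rose by 1.03 ± 0.17 (adjusted p = 0.00791), a call that was lost without 12 h replicate 1 (adjusted p = 0.0523), 24 h replicate 1 (adjusted p = 0.0717) or 24 h replicate 2 (adjusted p = 0.0895). From 6 h to 24 h it rose by 1.31 ± 0.17 (adjusted p = 0.000374). Whether the step from 6 h to 12 h differs between the 2 genes was not tested.

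Mmp3, stromelysin 1, a close relative of Mmp10, had signals of 54.1 and 55.1 at 0 h, 35 and 61.2 at 6 h, 41.6 and 25.4 at 12 h, and 109 and 118.3 at 24 h. Both 24 h arrays lay above all 6 others. The mean log2 value was below the filter, so no test was made, and the untested difference was 0.82 at 24 h against 0 h and 1.31 at 24 h against 12 h. With no filter on dim probe sets the adjusted p values were 0.0996 and 0.0601. A higher level at 24 h was thus not called for this dim probe set.

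Mmp13, Mmp3 and Mmp10 lie in 1 cluster of metalloproteinase genes on chromosome 9, in the order Mmp13, Mmp12, Mmp1b, Mmp3, Mmp1a, Mmp10, Mmp8, Mmp27, Mmp20 and Mmp7 in RefSeq's annotation. A probe set was used for 9 of these 10 genes. Only those of Mmp13 and Mmp10 passed the filter, and the other 7 were dimmer. The 6 genes of the cluster that are not members had signals between 2.6 and 61.6 on all arrays. Mmp7, matrilysin, had signals of 50.9 and 42.3 at 24 h, against 18.3 and 20 at 0 h, and was not tested.

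**Figure D2:**
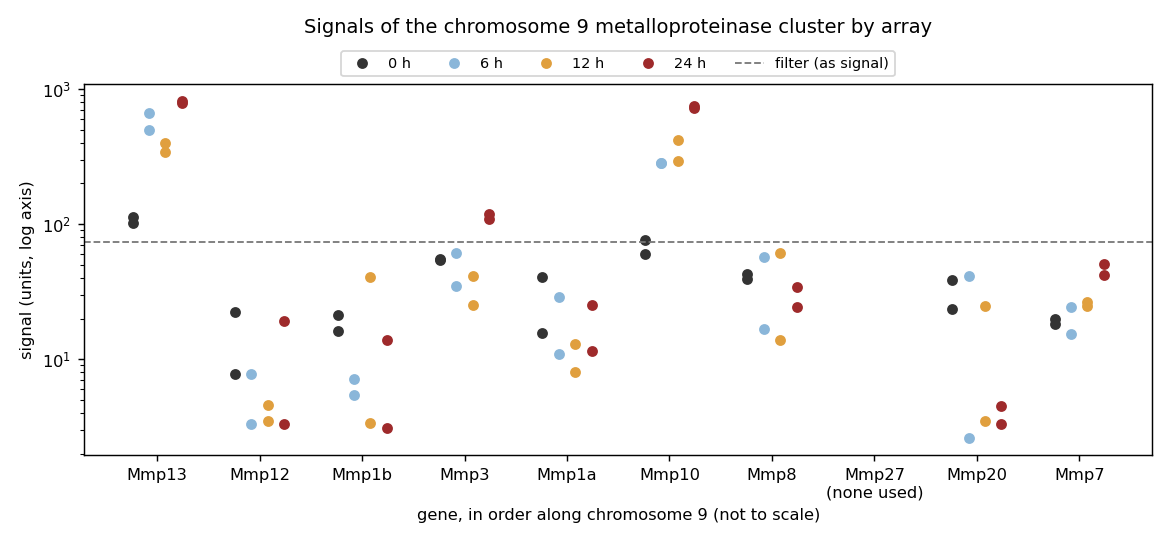
Signals (units, log axis) of the chromosome 9 metalloproteinase genes in their order along the chromosome, not to scale. Points are arrays coloured by time, the dashed line is the filter expressed as a signal (74.0), and no probe set was used for Mmp27. Mmp13 and Mmp10 lie above the line at each later time, Mmp3 lies above it at 24 h alone, and the 6 genes that are not members stay below it.

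Mmp2, gelatinase A, which cuts denatured collagen and basement membrane collagen, was read by a pair of probe sets that differed. On 1416136_at the signals were 376.9 and 411 at 0 h, 384 and 355.6 at 6 h, 475.2 and 424.3 at 12 h, and 609.2 and 615.5 at 24 h. Both 24 h arrays lay above all others, and the change from 0 h was 0.61 ± 0.12 at 24 h (adjusted p = 0.00298), a fold of 1.53. At 6 h it was -0.09 ± 0.12 (adjusted p = 0.673) and at 12 h 0.18 ± 0.12 (adjusted p = 0.313). The step from 12 h to 24 h was 0.43 ± 0.12 and missed the threshold (adjusted p = 0.0594), and without either 6 h array it passed (adjusted p = 0.0359 without replicate 1 and 0.0355 without replicate 2), as it did with the filter at the 60th percentile (adjusted p = 0.0471).

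On the other probe set of Mmp2, 1439364_a_at, signals were 554.9 and 521.5 at 0 h, 530.4 and 470.9 at 6 h, 402.8 and 555.9 at 12 h, and 568.6 and 556.6 at 24 h. The 24 h arrays again lay above those of 0 h, but by little. The change at 24 h against 0 h was 0.06 ± 0.15 (adjusted p = 0.788), with a 95% interval from -0.27 to 0.39 that overlaps that of 1416136_at, from 0.34 to 0.88. The difference between the probe sets was not tested. The rise of Mmp2 therefore rests on 1 of 2 probe sets.

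Mmp14, the membrane-anchored metalloproteinase that activates pro-MMP2 at the cell surface, had a pair of probe sets of which neither passed the F-test. On 1448383_at signals were 1255.1 and 1206.2 at 0 h, 949 and 994.1 at 6 h, 1139.9 and 957.9 at 12 h, and 1095.5 and 986.2 at 24 h. On 1416572_at they were 713.6 and 603.2 at 0 h, 599.8 and 558.4 at 6 h, 503.3 and 545.1 at 12 h, and 519 and 538.7 at 24 h. Each later array lay below both 0 h arrays on both probe sets. The change at 24 h against 0 h was -0.24 ± 0.11 (adjusted p = 0.135) on 1448383_at and -0.30 ± 0.12 (adjusted p = 0.0817) on 1416572_at, and 1416572_at passed when arrays were centred on their median (-0.40, adjusted p = 0.0292) or when only 0 h and 24 h were fitted (adjusted p = 0.0487). At 6 h 1448383_at passed with the replicate number as a block (-0.33, adjusted p = 0.0447).

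**Figure D3:**
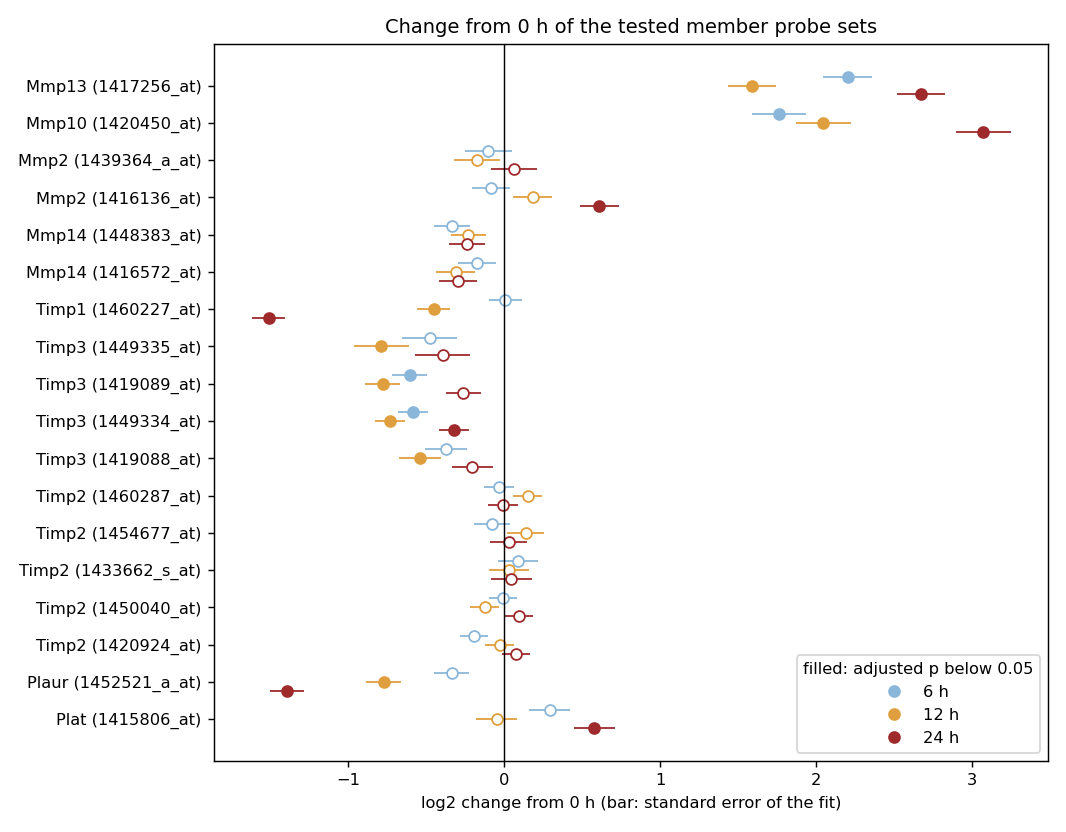
Log2 change from 0 h of the 18 tested member probe sets at 6, 12 and 24 h, with bars for the standard error of the fit and filled points for adjusted p below 0.05. Mmp13 and Mmp10 lie right of 1.5 at each time, Timp1 and Plaur lie left of -1 at 24 h, the 4 probe sets of Timp3 lie left of 0 with their lowest points at 12 h, and no point of Mmp14 or Timp2 is filled.

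Timp1, a secreted inhibitor of many metalloproteinases, had signals of 3071.4 and 2909 at 0 h, 3191.6 and 2827 at 6 h, 2290.6 and 2069.5 at 12 h, and 1094.6 and 975.4 at 24 h. The 6 h arrays overlapped those of 0 h, the 12 h arrays lay below both, and the 24 h arrays lay lowest. The means were 2990 ± 115 at 0 h, 3009 ± 258 after 6 h, 2180 ± 156 after 12 h and 1035 ± 84.3 after 24 h (SD, n = 2 each). The change from 0 h was 0.01 ± 0.11 at 6 h (adjusted p = 0.974), -0.45 ± 0.11 at 12 h (adjusted p = 0.0105) and -1.51 ± 0.11 at 24 h (adjusted p = 3.48e-06).

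The fall of Timp1 at 24 h was 2.85-fold and ranked 30 of 13576 by size among falls. Most of it came after 12 h: the change from 12 h to 24 h was -1.06 ± 0.11 (adjusted p = 0.000901), which ranked 17 among falls. The fall at 12 h against 0 h was lost without 0 h replicate 1 (adjusted p = 0.0952), 0 h replicate 2 (adjusted p = 0.0529) or 12 h replicate 2 (adjusted p = 0.0774). From 6 h to 12 h the change was -0.46 ± 0.11 (adjusted p = 0.0259), and this call was lost without either 0 h array, either 12 h array or 6 h replicate 1 (adjusted p between 0.0540 and 0.141), without a variance trend (0.0743) and where 6 h and 12 h alone were fitted (0.106). The fall at 24 h against 0 h, 6 h or 12 h was called under all 18 alternatives.

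Timp3 encodes the TIMP that binds to the matrix and also inhibits ADAM17 and several ADAMTS proteases. It was read by 4 probe sets, for which the annotation gives the same source sequence, so they are not independent. On 1449334_at, the probe set with the closest replicates, signals were 1437.7 and 1519.6 at 0 h, 983.8 and 968 at 6 h, 884 and 874.3 at 12 h, and 1188 and 1169.4 at 24 h. On 1419089_at they were 3573.7 and 3751.8 at 0 h, 2661.7 and 2154 at 6 h, 2236.2 and 2014.8 at 12 h, and 3135.2 and 2963.8 at 24 h. On both, every later array lay below both 0 h arrays and the 24 h arrays lay above those of 6 h and 12 h.

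The other probe sets had the same order of means. On 1449335_at signals were 4256.9 and 3814.3 at 0 h, 3577.4 and 2326.1 at 6 h, 2620.2 and 2057.5 at 12 h, and 3227.2 and 2895.9 at 24 h. On 1419088_at they were 1154.9 and 1342.2 at 0 h, 1088.3 and 837.5 at 6 h, 813.5 and 886.4 at 12 h, and 1089.7 and 1064.9 at 24 h. On all 4 probe sets 6 h replicate 1 had a higher signal than 6 h replicate 2.

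At 12 h against 0 h all 4 probe sets of Timp3 fell, with changes of -0.74 ± 0.10 on 1449334_at (adjusted p = 0.000399), -0.78 ± 0.11 on 1419089_at (adjusted p = 0.000736), -0.79 ± 0.18 on 1449335_at (adjusted p = 0.00847) and -0.54 ± 0.13 on 1419088_at (adjusted p = 0.0136). As folds these falls were between 1.45 and 1.73. The call on 1449335_at was lost without 0 h replicate 1 (adjusted p = 0.0776) or 12 h replicate 2 (adjusted p = 0.0743), and that on 1419088_at without 0 h replicate 2 (adjusted p = 0.130) or 12 h replicate 1 (adjusted p = 0.0778). The fall of Timp3 at 12 h was called under all 18 alternatives on the other 2 probe sets. From 6 h to 12 h the change was between -0.31 and -0.15 and was not called on any of the 4 (adjusted p between 0.31 and 0.49). The arrays of these times overlapped except on 1449334_at. Without 6 h replicate 2 the change on 1449335_at was -0.62 and passed the threshold. With all arrays in the fit, a further fall of Timp3 after 6 h was thus not called.

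At 6 h against 0 h Timp3 fell, with changes of -0.59 ± 0.10 on 1449334_at (adjusted p = 0.00222) and -0.61 ± 0.11 on 1419089_at (adjusted p = 0.00458, and 0.0522 without 0 h replicate 2). The changes of -0.48 ± 0.18 on 1449335_at (adjusted p = 0.0857) and -0.38 ± 0.13 on 1419088_at (adjusted p = 0.0753) were not called, but that on 1449335_at passed with the replicate number as a block (adjusted p = 0.0162). Without 6 h replicate 1 they were -0.79 (adjusted p = 0.00565) and -0.56 (adjusted p = 0.0158). The early fall of Timp3 thus showed on all 4 probe sets in its direction and on 2 in the test.

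By 24 h Timp3 had moved part of the way back. The change at 24 h against 0 h was -0.32 ± 0.10 on 1449334_at (adjusted p = 0.0244), a call lost without any 1 of the 4 arrays compared (adjusted p between 0.0825 and 0.159). On the other 3 it was between -0.40 and -0.21 and was not called, and 1419089_at and 1449335_at passed when either 6 h array was left out (adjusted p between 0.0193 and 0.0282) or when only 0 h and 24 h were fitted (adjusted p = 0.0141 and 0.00342). 1419089_at also passed with arrays centred on their median (adjusted p = 0.0375) and 1449335_at with the replicate number as a block (adjusted p = 0.0229). From 12 h to 24 h Timp3 rose by 0.52 ± 0.11 on 1419089_at (adjusted p = 0.0228) and 0.41 ± 0.10 on 1449334_at (adjusted p = 0.0284), and on each the call was lost without either array of 0 h, 12 h or 24 h (adjusted p between 0.0512 and 0.169) and without a variance trend (0.0796 and 0.0734), and on 1449334_at with arrays centred on their median (0.0570). The rise of 0.39 ± 0.18 on 1449335_at (adjusted p = 0.218) passed only without 6 h replicate 2 (adjusted p = 0.0493), and that of 0.34 ± 0.13 on 1419088_at was not called (adjusted p = 0.165). From 6 h to 24 h 1419089_at rose by 0.35 ± 0.11 (adjusted p = 0.0456), which 11 of 18 alternatives ended and which was 0.19 without 6 h replicate 2 (adjusted p = 0.178).

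Timp2, which inhibits metalloproteinases and also takes part in the activation of pro-MMP2 by MMP14, had no called change on its 5 tested probe sets. On 1460287_at signals were 14572.3 and 13570.2 at 0 h, 14438.7 and 13065.4 at 6 h, 15099.8 and 16110.5 at 12 h, and 14332.4 and 13653 at 24 h. The 24 h and 0 h arrays overlapped, and the change was -0.01 ± 0.09 (adjusted p = 0.963). On the 5 probe sets the change at 24 h against 0 h lay between -0.01 and 0.09, and their 95% intervals together ran from -0.24 to 0.33. The smallest adjusted p of any comparison was 0.0531, for a change of 0.27 ± 0.09 from 6 h to 24 h on 1420924_at, which passed without 6 h replicate 2 (adjusted p = 0.0410), with quantile normalization (0.33, adjusted p = 0.0167), with the filter at the 60th percentile (adjusted p = 0.0433) and with the replicate number as a block (adjusted p = 0.0493). The sixth probe set, 1437081_at, had signals between 3.1 and 38.8 and was not tested.

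**Figure D4:**
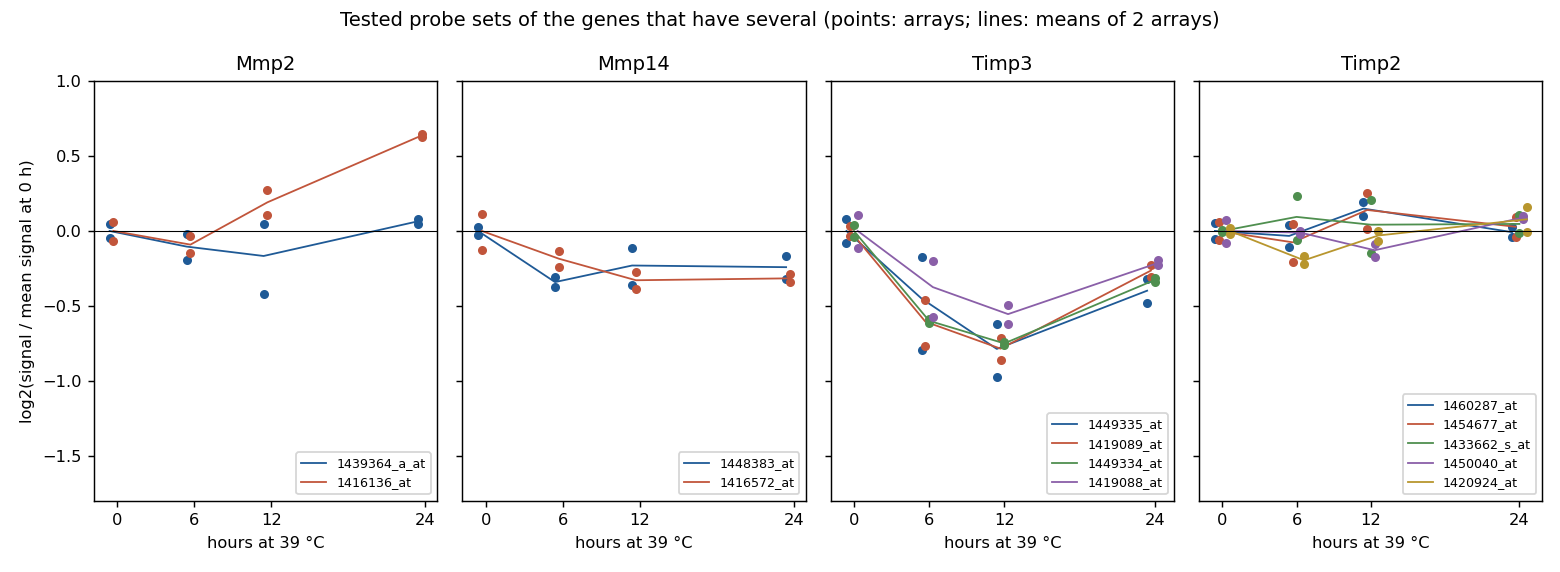
Log2 of signal over the mean signal at 0 h for the tested probe sets of Mmp2, Mmp14, Timp3 and Timp2 against hours at 39 °C. Points are arrays and lines join the means of 2 arrays. The probe sets of Mmp2 part at 24 h, those of Mmp14 lie below 0 after 0 h, those of Timp3 reach their lowest means at 12 h and rise again by 24 h, and those of Timp2 stay near 0.

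Plaur encodes the receptor that holds urokinase at the cell surface. Its signals were 799.6 and 866.5 at 0 h, 656.4 and 652.1 at 6 h, 476.6 and 478 at 12 h, and 306.4 and 300.2 at 24 h. Each time lay below all earlier ones with no overlap of arrays. The means were 833 ± 47.3 at 0 h, 654 ± 3.04 after 6 h, 477 ± 0.990 after 12 h and 303 ± 4.38 after 24 h (SD, n = 2 each). The change from 0 h was -0.34 ± 0.11 at 6 h, which missed the threshold (adjusted p = 0.0573, and 0.0481 with the filter at the 60th percentile), -0.78 ± 0.11 at 12 h (adjusted p = 0.000662) and -1.39 ± 0.11 at 24 h (adjusted p = 7.03e-06).

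The fall of Plaur at 24 h was 2.63-fold and ranked 48 of 13576 among falls. The falls at 12 h and 24 h against 0 h were called under all 18 alternatives, as was that from 6 h to 24 h (-1.06 ± 0.11, adjusted p = 7.71e-05). The single steps were less firm. From 6 h to 12 h the change was -0.44 ± 0.11 (adjusted p = 0.0355), a call lost without any 1 array (adjusted p between 0.0522 and 0.124), with no filter (0.0511), without a variance trend (0.0564) and where 6 h and 12 h alone were fitted (0.140). From 12 h to 24 h it was -0.62 ± 0.11 (adjusted p = 0.0103), lost without any 1 of the 12 h and 24 h arrays (adjusted p between 0.0502 and 0.0960).

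Plat, tissue plasminogen activator, is a secreted activator of plasminogen. Its signals were 531.1 and 608 at 0 h, 676.7 and 723.8 at 6 h, 541.1 and 557 at 12 h, and 959.3 and 767.4 at 24 h. The 24 h arrays lay above all others, the 6 h arrays lay above those of 0 h and 12 h, and the 12 h arrays overlapped those of 0 h. The change at 24 h against 0 h was 0.58 ± 0.13 (adjusted p = 0.00603), a fold of 1.49, and it was lost without 0 h replicate 1 (adjusted p = 0.0703) or 24 h replicate 1 (adjusted p = 0.0787). The change was 0.29 ± 0.13 at 6 h (adjusted p = 0.149) and -0.05 ± 0.13 at 12 h (adjusted p = 0.827). From 12 h to 24 h Plat rose by 0.62 ± 0.13 (adjusted p = 0.0190), a call lost without any 1 of the 12 h and 24 h arrays (adjusted p between 0.0529 and 0.174) and without a variance trend (0.0568).

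Between later times, 3 member probe sets were called at 12 h against 6 h, against 8.32% of all tested probe sets (4.61% higher and 3.71% lower): Mmp13, Timp1 and Plaur, all lower. At 24 h against 12 h there were 7 of 18, against 6.88% (3.77% higher and 3.11% lower): Mmp13, Mmp10, Plat and 2 probe sets of Timp3 were higher and Timp1 and Plaur lower. At 24 h against 6 h there were 6, against 24.9% (13.6% higher and 11.3% lower): Mmp13, Mmp10, Mmp2 and Timp3 with 1 probe set each were higher and Timp1 and Plaur lower. The median change of the 18 was -0.13 at 12 h against 6 h, 0.23 at 24 h against 12 h and 0.14 at 24 h against 6 h, against 0.01 over all tested probe sets in each comparison. The counts at 12 h against 6 h and at 24 h against 12 h rest on single arrays: leaving out 1 array gave between 0 and 2 calls at 12 h against 6 h, and between 1 (without 24 h replicate 2) and 9 (without 6 h replicate 2) at 24 h against 12 h.

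Over the 8 arrays, with 1 probe set per gene, the log2 values of Mmp10 and Mmp13 had a Pearson r of 0.926, those of Plaur and Timp1 of 0.944, and those of Mmp10 and Plaur of -0.921. These pairs were picked because their r was the largest in size among all pairs of members, and every other pair was weaker. The r values describe 4 times with 2 arrays each, and any genes with a like or opposite course over the times correlate in this way. A link between the genes was not tested. Among 1061 named probe sets that passed the F-test and spanned at least 1 log2 unit, those most like Mmp10 were Taf6 (r = 0.992), Dnmt3a (r = 0.991) and Map1lc3b (r = 0.990). The most like Mmp13 were Hsp90b1 (r = 0.972), Sec62 (r = 0.969) and Adcy6 (r = 0.968). The most like Timp1 were Phgdh (r = 0.990), Mcrip2 (r = 0.987) and Card19 (r = 0.984), and the most like Plaur were Eif2s2 (r = 0.993), Fabp5 (r = 0.985) and Mybbp1a (r = 0.983).

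The partners of the members outside the set were read from 5 lists, with the brightest probe set per gene. Of the 13 other metalloproteinase genes with a probe set used here, 12 lay below the filter, Mmp9 among them. The tested one was Mmp11, stromelysin 3, with signals of 535.1 and 426.5 at 0 h, 372.1 and 362 at 6 h, 547.1 and 533.2 at 12 h, and 897.5 and 777.9 at 24 h. It rose by 0.78 ± 0.13 at 24 h (adjusted p = 0.00119), after a change of -0.36 ± 0.13 at 6 h (adjusted p = 0.0853). Of 11 other inhibitors and cofactors of metalloproteinases, 6 were tested, and Timp4 and Reck were below the filter. At 24 h 3 of the 6 fell and none rose, against 15.8% and 17.1% of all tested probe sets.

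The 3 that fell were Cd44, a hyaluronan receptor that docks metalloproteinases at the cell surface, and the thrombospondins Thbs1 and Thbs2, matrix proteins that bind metalloproteinases. Cd44 had a change of -0.97 ± 0.10 at 24 h (adjusted p = 3.78e-05). Thbs1 fell, with changes of -1.03 ± 0.11 at 6 h and -1.08 ± 0.11 at 12 h, and its change of -0.43 ± 0.11 at 24 h (adjusted p = 0.00924) was lost without 0 h replicate 1 (adjusted p = 0.0891) or 24 h replicate 2 (adjusted p = 0.103). Thbs2 fell, with changes of -1.43 ± 0.17 at 12 h (adjusted p = 0.000242) and -0.84 ± 0.17 at 24 h (adjusted p = 0.00347). As with Timp3, the means of Thbs1 and Thbs2 were lowest at 12 h, whereas that of Cd44 was lowest at 24 h. The steps to these lowest means were not called. From 6 h to 12 h the change was -0.05 ± 0.11 for Thbs1 (adjusted p = 0.812) and -0.53 ± 0.17 for Thbs2 (adjusted p = 0.0832). For Cd44 it was -0.11 ± 0.10 from 12 h to 24 h (adjusted p = 0.557).

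Of 10 other genes of the plasminogen system, 6 were tested, and 2 rose and 2 fell at 24 h, against 17.1% and 15.8% of all tested probe sets. Plau, which encodes urokinase, the ligand of the Plaur product, had signals between 12.4 and 59.5 on the 8 arrays and was below the filter, as was plasminogen (Plg). Serpini1, neuroserpin, an inhibitor of tissue plasminogen activator, rose (0.89 ± 0.20, adjusted p = 0.00546). It was dim, with a mean signal of 154 at 24 h and of 73.2 at 0 h, below the filter expressed as a signal (74.0). Lrp1, an endocytic receptor that clears plasminogen activators, also rose (0.64 ± 0.15, adjusted p = 0.00622). The Lrp1 call was lost without 0 h replicate 2 (change of 0.56) or 24 h replicate 1 (0.53). The genes that fell were Anxa2 (-0.83 ± 0.12, adjusted p = 0.000362) and S100a10 (-0.56 ± 0.09, adjusted p = 0.000644), whose products form a complex that binds plasminogen at the cell surface. Both were near their 0 h level at 12 h, with changes of -0.15 ± 0.12 and 0.04 ± 0.09. The change of Plgrkt, which encodes a plasminogen receptor, was -0.25 ± 0.10 at 24 h and was not called (adjusted p = 0.0673).

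Of 10 tested ADAM and ADAMTS proteases, 2 rose and 1 fell at 24 h, a share near the background of 17.1% higher and 15.8% lower. Adam10 (0.40 ± 0.10, adjusted p = 0.00867) and Adam17 (0.49 ± 0.11, adjusted p = 0.00660), sheddases of cell surface proteins, rose. Adamts1, which cuts proteoglycans, fell, with changes of -0.81 ± 0.21 (adjusted p = 0.0133) at 24 h and -1.20 ± 0.21 at 12 h (adjusted p = 0.00232). Each of these calls at 24 h was lost without 1 or more of the arrays compared: Adam10 without 0 h replicate 1 (adjusted p = 0.105) or 24 h replicate 2 (adjusted p = 0.0879), Adam17 without 0 h replicate 2 (adjusted p = 0.0658) or 24 h replicate 1 (adjusted p = 0.0758), and Adamts1 without any of the 4 (adjusted p between 0.0538 and 0.0969).

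Of 10 tested lysosomal and other matrix proteases and their inhibitors, 4 rose and 1 fell at 24 h, against 17.1% and 15.8% of all tested probe sets. Prss35, which encodes a member of the serine protease family, had signals of 227.1 and 212.2 at 0 h, 159.6 and 230.9 at 6 h, 496.7 and 566.6 at 12 h, and 1198.6 and 1143.5 at 24 h, a change of 2.30 ± 0.16 at 24 h (adjusted p = 3.14e-06). The lysosomal proteases cathepsin D (Ctsd, 0.99 ± 0.10, adjusted p = 3.48e-05) and cathepsin B (Ctsb, 0.53 ± 0.10, adjusted p = 0.00223) also rose. The cathepsin inhibitor cystatin C (Cst3) rose by 0.32 ± 0.09 (adjusted p = 0.0197), a call lost without any 1 of the 4 arrays compared (adjusted p between 0.0619 and 0.138). The secreted serine protease Htra1 fell, with a change of -0.82 ± 0.10 (adjusted p = 0.000108). The serine protease Prss23 passed the F-test too, with 0.64 ± 0.14 at 6 h (adjusted p = 0.0109, and 0.0692 or 0.0799 without 0 h replicate 1 or 2) and 0.18 ± 0.14 at 24 h (adjusted p = 0.362).

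**Figure D5:**
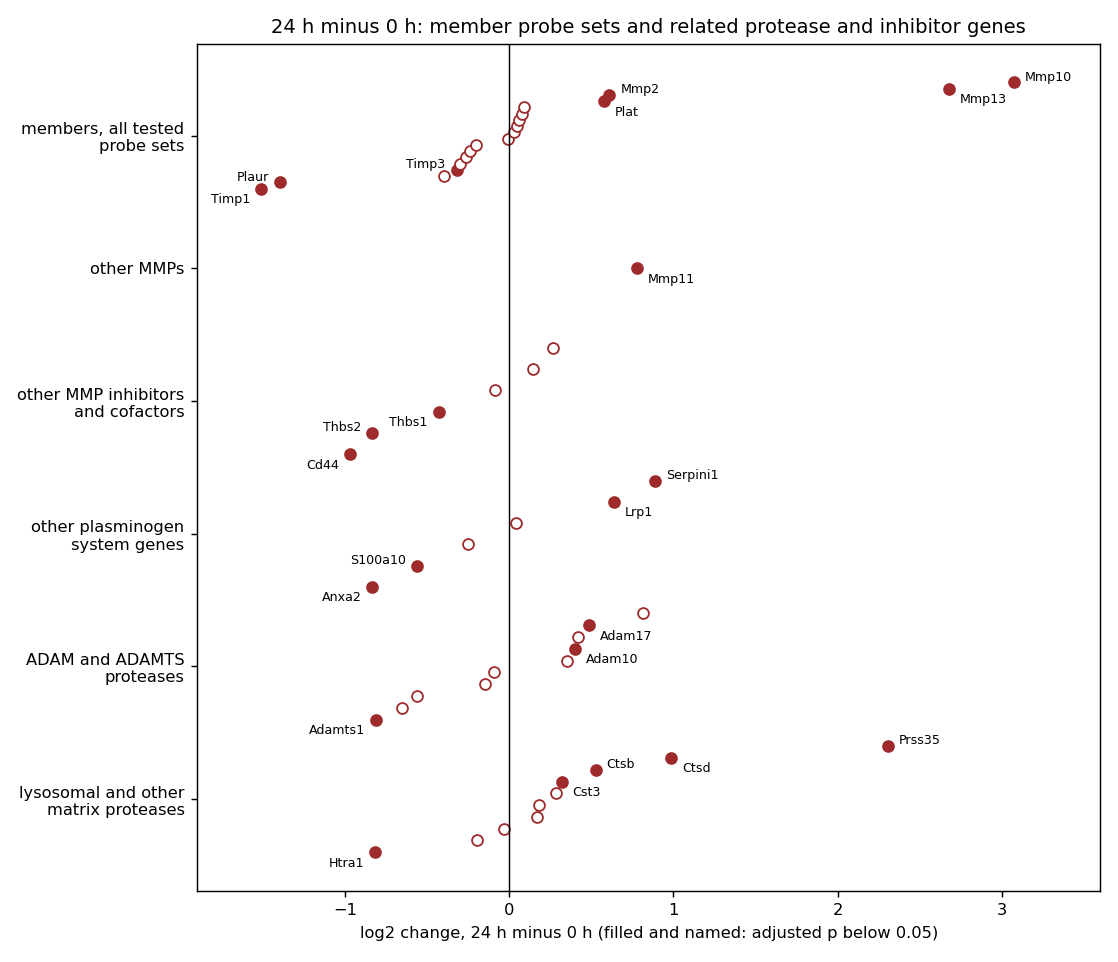
Log2 change at 24 h against 0 h of the tested member probe sets and of the tested genes of the 5 related lists, in order of size within each list. Filled points have an adjusted p below 0.05 and carry the gene name. Mmp10 at 3.07, Mmp13 at 2.67 and Prss35 at 2.30 lie furthest right, and Timp1 at -1.51 and Plaur at -1.39 lie furthest left.

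Of 13 Sertoli markers with a probe set used here, 7 were tested (Sox9, Wt1, Gata4, Inha, Inhbb, Kitl and Clu) and Amh, Fshr, Dhh, Cldn11, Gdnf and Rhox5 were below the filter. The summed signal of the 13, which the brightest probe sets decide, was 6303 and 6984.8 at 24 h, against 3812.5 and 4068.9 at 0 h, but of the 7 tested only Clu (1.44 ± 0.15, adjusted p = 3.63e-05) and Inhbb (0.51 ± 0.14, adjusted p = 0.0188, and between 0.0755 and 0.151 without 0 h replicate 1 or either 24 h array) were called higher at 24 h, and 5 were not called. None of 6 endothelial and none of 6 germ cell markers passed the filter. Of 7 macrophage and blood markers Ptprc, Adgre1, Itgam and Lyz2 did not pass it, and the sums of the 7 were 664.7 and 675.7 at 24 h, against 548.9 and 633 at 0 h. Of the 3 tested, Cd68 was called higher at 24 h (0.59 ± 0.18, adjusted p = 0.0306). The median change of the 3 was -0.13, with the 2 markers that were not called at or below it. The Cd68 call was lost without 0 h replicate 1 or either 24 h array, where the change was between 0.43 and 0.63. It was also lost with no filter (adjusted p = 0.0779), with quantile normalization (0.0617) and with arrays centred on their median (0.0677). Of 6 fibroblast markers 2 were tested, and the sums of the 6 were 6447.4 and 7386.1 at 24 h, against 2200.1 and 2313.5 at 0 h. Both rose: Dcn, which encodes decorin, by 2.0 ± 0.11 (adjusted p = 7.72e-07) and Col1a1, a collagen gene, by 0.41 ± 0.13 (adjusted p = 0.0339), a call lost without 0 h replicate 2 or either 24 h array (adjusted p between 0.0717 and 0.288). Of 6 myoid markers 2 were tested and neither was called, and the sums of the 6 were 313.8 and 416.7 at 24 h, against 318.5 and 395.2 at 0 h. Of 4 Leydig markers 1 was tested, Star, which rose by 1.18 ± 0.24 (adjusted p = 0.00327), and the sums of the 4 were 248 and 326.1 at 24 h, against 96.8 and 157.9 at 0 h. Their part in the changes of the proteases and inhibitors was not tested.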

How the data were processed

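The authors deposited 1 linear intensity per probe set and array, between 0.1 and 38130.2, made by software not given in the sources used here. These intensities had a mean of about 500.2 on every array after 2% of values were trimmed at each end, so they were scaled to a common level, and a change in total mRNA per cell cannot be seen. Detection calls were not used.

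Of 22690 probe sets, 64 controls were left out. Names came from the platform annotation: 20380 probe sets had 1 symbol, 691 several and 1555 none, and no member stood among those with several. Intensities were taken as log2(intensity + 21.9), the 20th percentile, which understates changes of dim genes. Probe sets with a mean log2 below the 40th percentile (6.58) were left out. Arrays were used as deposited, since their median log2 values lay within 0.140. One model with 4 times was fitted with limma 3.58.1 in R 4.3.3 (eBayes with a variance trend, 4 residual and 7.22 prior degrees of freedom), with 2-sided moderated contrasts and an F-test. The procedure was tested on simulated data, with changes set at 24 h alone and noise independent between probe sets. The simulation did not cover changes at other times or effects shared by the probe sets of an array. Median signals ran from 138 to 154.3, arrays of a time correlated with r between 0.979 and 0.986, and 2 arrays per time limit the precision.

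Members and lists were chosen with earlier results of these data known. Every member probe set was described. From each related list, up to 6 genes past the F-test were named, by the size of their change from 0 h. The brightest probe set stood for a gene of a list. Promoter windows were searched in Python 3.11.15. The 18 alternatives changed the offset, the filter, the normalization, the samples in the fit, the variance prior, the replicate block or left out 1 array; they were run for genes of the lists after the plan was made.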

Additional observations from a re-analysis of the deposited data

How the results depend on the processing

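Of the log2 changes of the 18 tested member probe sets in 6 comparisons, none changed direction with a call under 18 alternatives: 1828 values kept their side of the threshold, 92 lost a call and 24 gained one. The rises of Mmp13 and Mmp10 and the fall of Plaur at 12 h and of Timp1 and Plaur at 24 h, all against 0 h, were called in every alternative. At 12 h against 6 h the 3 calls among members became 1 with no filter, 0 where the fit held 12 h and 6 h alone and 0 without a variance trend, and 0 to 2 when 1 array was left out. At 24 h against 12 h the 7 calls became 4 without a variance trend and 1 to 9 when 1 array was left out. Leaving out 1 array gave 3 to 6 calls at 6 h, 6 to 8 at 12 h and 5 to 9 at 24 h against 0 h, 4 to 6 at 24 h against 6 h, and 8 to 10 by the F-test. The main fit did not pair samples by replicate number, and whether these numbers mark pairs is not settled. Deviations of same-numbered arrays from their time means correlated weakly, with r between 0.0496 and 0.180 over probe sets. With the replicate number as a block the calls were 6 at 6 h, 8 at 12 h and 8 at 24 h against 0 h, 3 at 12 h against 6 h, 7 at 24 h against 12 h, 7 at 24 h against 6 h and 10 by the F-test. Of all tested probe sets the block called 20.7% at 6 h, 26.9% at 12 h and 35.6% at 24 h against 0 h. It called 10.8% at 12 h against 6 h and 8.93% at 24 h against 12 h. At 24 h against 6 h it called 27.7%, and by the F-test 44.1%. Each of these shares was above that of the main fit. For the 25 genes of related lists and markers, 105 values against 0 h lost a call and 8 gained one, none turned, and these alternatives were added after seeing the data.

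The background counts moved too. Leaving out 1 array changed 5447 F-test calls to as few as 3301, 2441 calls at 6 h against 0 h to 835, 3257 at 12 h to 1519, 4472 at 24 h to 2598, 3377 at 24 h against 6 h to 1737, 1130 at 12 h against 6 h to 323, and 934 at 24 h against 12 h to between 84 and 1650. At 12 h against 6 h there were 644 with no filter, 606 without a trend and 240 where the fit held these times alone, and at 24 h against 12 h 529 with no filter and 369 without a trend. Centring arrays on their median lowered the median change at 24 h against 0 h by 0.105 on the log2 scale, and the share of higher among all calls was 40.4% so centred against 50.5% as deposited at 12 h, 37.5% against 52.0% at 24 h, 42.2% against 54.8% at 24 h against 12 h, and 40.5% against 54.7% at 24 h against 6 h. The cause of these shifts was not tested. Dim probe sets, Mmp3 among them, are limited by signal over background.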
